A study of Danio rerio with 20 samples.

Results

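The genes described here are the nuclear-encoded subunits of oxidative phosphorylation in zebrafish (Danio rerio) skin. They were taken from the count table by symbol, ignoring case: symbols starting with NDUFA, NDUFB, NDUFC, NDUFS or NDUFV, with SDHA to SDHD, with UQCR, with COX4 to COX8 or with ATP5, together with CYC1. Symbols of the families NDUFAF, SDHAF and UQCC, which are assembly factors, were left out, and 11 matches of the pattern were removed in this way. This gave 94 of 32105 genes, of which 38 belong to complex I, 5 to complex II, 9 to complex III, 22 to complex IV and 20 to complex V. The NDUFA4 family was counted with complex IV, since NDUFA4 is a subunit of that complex despite its symbol. The pattern also takes in ATP5IF1, an inhibitor of the ATP synthase, and COX7A2L, a factor of respiratory supercomplexes.

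RNA was sequenced from skin in 20 libraries, 5 in each of 4 groups: 1-year fish swum in a tunnel, 1-year fish with no perturbation, 3-year fish swum in a tunnel and 3-year fish with no perturbation. All were male and of the strain AB JxTu, per the labels. Exercise in a tunnel means swimming against flowing water. The design crosses age with exercise, and nothing in the labels says how the fish relate to each other, so p-values measure the spread between these samples only. Total counts were 29280697 to 52437698 per library. The labelled tissue was checked with 23 keratinocyte genes, whose summed level was 70103 to 135522 CPM over the 20 libraries. None of these markers was at 0 throughout a group. CPM are counts set to a common library total after TMM scaling. The count column of unexercised 1-year replicate 1 is named muscle although its labels say skin. Its slow and fast muscle scores, 5.50 and 6.09 as mean log2(CPM + 1), lay within the range of the other 4 libraries of its group. Its keratinocyte score on the same scale, 8.17, lay below the 8.39 to 8.66 of those 4. It was also the lowest of the 20 libraries. Counts without this library are given where they moved.

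Oxidative phosphorylation is the last stage of aerobic energy supply in mitochondria. Complex I takes electrons from NADH and complex II takes them from succinate. Both pass them by way of ubiquinone to complex III, then by cytochrome c to complex IV, which reduces oxygen. The proton gradient built by complexes I, III and IV drives complex V, the ATP synthase. Most subunits are encoded in the nucleus and a smaller set in mitochondrial DNA. Several subunits of complex IV have paralogs that in mammals are used mainly in striated muscle, and skeletal muscle lies directly under fish skin.

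Levels of different genes were compared per gene length, as RPKM. The median member had 77.6 RPKM averaged over the 20 libraries, against 3.37 RPKM for the median of all 20788 genes tested. By complex the median level was 60.3 RPKM for complex I, 67.1 for complex II, 81.1 for complex III, 98.1 for complex IV and 135.5 for complex V. The highest levels belonged to ATP5F1B at 565.7 RPKM, the catalytic beta subunit of the ATP synthase, to COX4I1 at 545.9 RPKM, the common form of complex IV subunit 4, and to ATP5F1A at 397.6 RPKM, the alpha subunit. The lowest were ndufa4l2b at 0.0194 RPKM, the SDHD copy ENSDARG00000055712 at 0.491 RPKM and ndufa4b at 0.721 RPKM. All members but ndufa4l2b passed the filter on low counts, so 93 of 94 were tested.

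The summed CPM of the members, as a percent of the common library total, was on average highest in swum 1-year fish and lowest in unexercised 3-year fish. Because CPM are TMM-scaled, this percentage is not the exact share of a library's own counts. It was 1.36%, 1.36%, 1.2%, 1.18% and 1.26% in swum 1-year libraries, against 1.03%, 1.02%, 0.97%, 0.87% and 1.34% in unexercised 1-year libraries. At 3 years it was 1.15%, 0.79%, 1.05%, 0.81% and 1.11% in swum fish, against 0.75%, 0.81%, 0.77%, 0.98% and 0.87% in unexercised fish. Replicate 5 of the unexercised 1-year group lay inside the swum range, and the swum 3-year group fell into 3 higher and 2 lower libraries, so the exercise groups overlapped at both ages.

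Each complex was summarised in a library by the mean of log2(CPM + 1) over its tested members. Complex II set the swum 1-year group apart most cleanly: its mean was 5.83, 5.82, 5.78, 5.77 and 5.80 in swum 1-year libraries, against 5.09 to 5.72 in the other 15 libraries. The spread within the swum 1-year group was 0.02 (SD, n = 5), against 0.19 in unexercised 1-year fish. These values are means over 5 genes, among them SDHD (ENSDARG00000055712), at a mean of 0.458 CPM. Of the 5 genes singly, only SDHA had swum and unexercised 1-year groups that did not overlap. Complex III averaged 6.74 ± 0.11 in swum and 6.34 ± 0.27 in unexercised 1-year fish, and 6.29 ± 0.19 in swum and 5.96 ± 0.18 in unexercised 3-year fish (SD, n = 5 each). For complexes I, III, IV and V, replicate 5 of the unexercised 1-year group reached into the swum range.

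**Figure D1:**
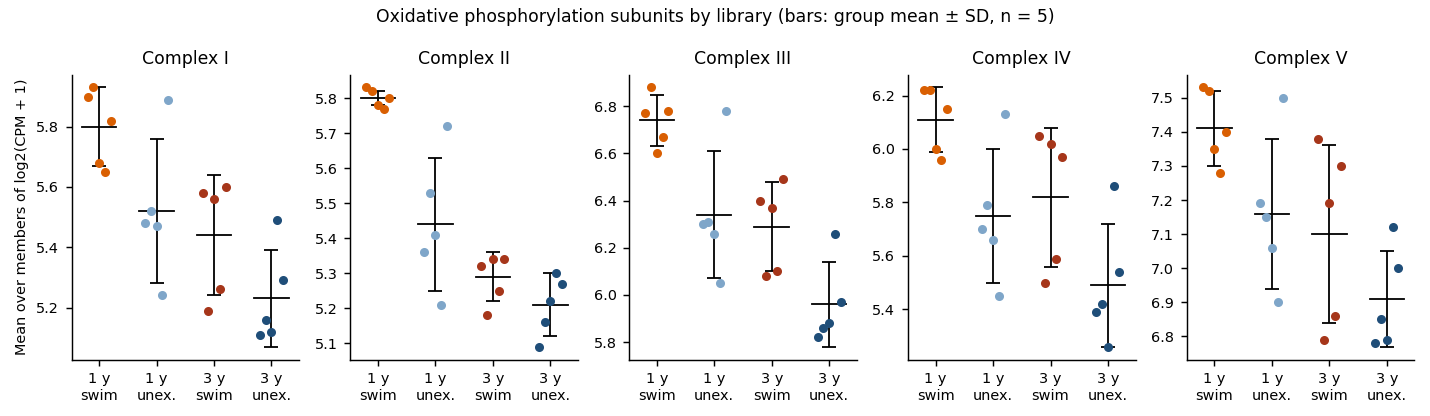
Mean log2(CPM + 1) over the tested subunit genes of each complex (vertical axis, a separate range in each panel) in the 20 libraries, by group (horizontal axis); points are libraries and bars the group mean ± SD (n = 5). In complex II all swum 1-year libraries lie above all others, at 5.77 to 5.83, while in the other complexes 1 unexercised 1-year library lies within the swum range.

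In swum over unexercised 1-year fish, 7 of 93 members rose and none fell at a Benjamini-Hochberg adjusted p below 0.05, from edgeR's quasi-likelihood test on 20788 genes. That is 7.53% of the members, close to the 7.37% of all genes called higher, while 8.15% were called lower. The median log2 fold change of the members was 0.31, against 0.01 over all genes, and 88 of 93 members were above 0, against 51.2% of all genes. At an unadjusted p below 0.05, 42 members were higher, while 14.5% of all genes were. The members thus lay on 1 side of 0 by small amounts, and few passed the test singly. The 7 were NDUFV1 in complex I, SDHA and SDHC in complex II, CYC1 and UQCRC2 in complex III, and cox5aa and COX7C in complex IV.

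SDHA, the flavoprotein of complex II that oxidises succinate, had 384.9, 416.1, 363.3, 419.8 and 387.4 CPM in swum 1-year fish, against 252.4, 256.3, 267.2, 243.3 and 345.0 CPM in unexercised 1-year fish. All swum libraries were above all unexercised ones, and unexercised replicate 5 was the nearest to them. The log2 fold change was 0.53 (SE 0.10, edgeR adjusted p = 0.0022). Of the other subunits of complex II, the membrane anchor SDHC rose by 0.35 (SE 0.12, adjusted p = 0.0491). The iron-sulfur subunit SDHB was at 0.40 on the log2 scale (SE 0.14, adjusted p = 0.0549), just short of the threshold.

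CYC1, the cytochrome c1 of complex III, had 219.0, 240.6, 195.3, 236.1 and 233.8 CPM in swum 1-year fish, against 165.2, 152.9, 143.7, 160.5 and 209.8 CPM in unexercised 1-year fish. The groups overlapped through unexercised replicate 5 alone, which was above swum replicate 3. Its log2 fold change was 0.43 (SE 0.11, edgeR adjusted p = 0.0141). UQCRC2, a core protein of the same complex, rose by 0.41 (SE 0.14, adjusted p = 0.0485).

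NDUFV1 carries the flavin that accepts electrons from NADH in complex I. It had 298.0, 281.0, 244.8, 273.5 and 280.0 CPM in swum 1-year fish, against 227.3, 178.0, 189.1, 197.3 and 239.4 CPM in unexercised 1-year fish. These groups did not overlap, and the log2 fold change was 0.42 (SE 0.12, edgeR adjusted p = 0.0211). SDHA and NDUFV1 were the 2 of 93 members whose 1-year groups did not overlap in the higher direction, while 5.79% of all genes did so and 7.04% did so in the lower direction. In complex IV, cox5aa rose by 0.40 (SE 0.12, adjusted p = 0.0354) and COX7C by 0.45 (SE 0.15, adjusted p = 0.0493). None of the 20 members of complex V passed. The member of lowest p there was atp5f1e, the epsilon subunit, at 0.38 (SE 0.13, adjusted p = 0.0623).

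The count at 1 year hung on single libraries and on the tool. Without unexercised replicate 5, 37 of 93 members passed, without unexercised replicate 1 only 3 did, and without other single libraries as few as 2. The share of all genes called in those fits is not given here, so these counts do not tell the members from all genes. DESeq2 called 14 of 94 members higher (14.9%) and 7.09% of all genes, and limma voom called 33 of 93 members (35.5%) and 9.8% of all genes. Here and below, DESeq2's shares are of 27540 genes, with low-count genes kept, and those of limma voom of 20788. The shares of the 2 tools are therefore not on the same set of genes. SDHA and CYC1 passed with every library left out in turn, whereas SDHC, UQCRC2 and COX7C lost the call without most of them.

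In swum over unexercised 3-year fish, no member passed edgeR's test in either direction, while 0.803% of all genes were called higher and 0.52% lower. DESeq2 called 1 member higher, CYC1, and 2.62% of all genes, and limma voom no member and 0.0962% of all genes. At an unadjusted p below 0.05, 15 members were higher and none lower, against 10.5% of all genes higher and 8.9% lower. The median log2 fold change was 0.24, against 0.01 over all genes, with 89 of 93 above 0 and 51.3% of all genes. The lowest p belonged to CYC1.

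CYC1 had 161.6, 139.3, 166.3, 132.3 and 173.1 CPM in swum 3-year fish, against 99.2, 131.4, 119.4, 123.7 and 121.9 CPM in unexercised 3-year fish. Every swum library was above every unexercised one, by little in the closest pair. The log2 fold change was 0.38 (SE 0.11, edgeR adjusted p = 0.0867). CYC1 and UQCR10 were the 2 members whose groups did not overlap, both in the higher direction, while 1.83% of all genes did so and 2.49% did so in the lower direction.

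In the other complexes the member of lowest p was ndufa7 in complex I at 0.37 (adjusted p = 0.145), the SDHD copy ENSDARG00000030139 in complex II at 0.16 (adjusted p = 0.4), COX4I1 in complex IV at 0.39 (adjusted p = 0.163) and atp5mj in complex V at 0.44 (adjusted p = 0.15). Complex II was the complex of smallest median at 3 years, at 0.16, against 0.34 for complex III. SDHB was at -0.18 (SE 0.14, adjusted p = 0.498), one of 4 members below 0.

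The difference between the exercise effects at the 2 ages was tested directly. No member passed in edgeR, DESeq2 or limma voom. Over all genes edgeR called 0.00481% higher and 0% lower, DESeq2 0.69% higher and 1.16% lower, and limma voom 0.00962% higher and 0% lower. At an unadjusted p below 0.05, 4 members passed, all with a smaller effect at 3 years, while 6.58% of all genes were lower and 6.81% higher: SDHB at -0.57 (SE 0.19, edgeR adjusted p = 0.194), SDHA at -0.41 (SE 0.14, adjusted p = 0.21), NDUFV1 at -0.36 (SE 0.17, adjusted p = 0.349) and atp5if1b at -0.35 (SE 0.16, adjusted p = 0.349). The 7 calls at 1 year and none at 3 years therefore do not show that the response differed with age.

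**Figure D2:**
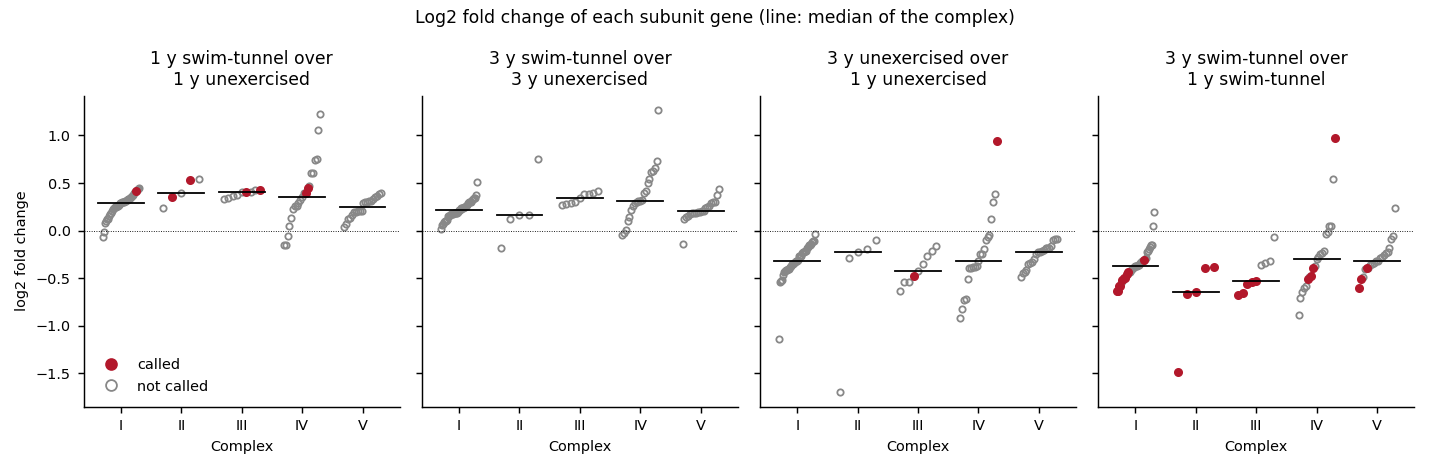
Log2 fold change of each of the 93 tested subunit genes (vertical axis) by complex (horizontal axis) in 4 comparisons; filled points passed edgeR's test, open points did not, and lines are the median of the complex. Medians lie above 0 in both exercise comparisons and below 0 in both age comparisons, with 26 members called lower in swum 3-year over swum 1-year fish and COX4I2 the filled point near 1 in both age panels.

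Between swum 3-year and swum 1-year fish, 26 of 93 members fell and 1 rose. These are 27.96% and 1.08% of the members, against 7.43% of all genes called lower and 9.73% called higher. The median log2 fold change was -0.37, against 0.02 over all genes, and 86 of 93 members were below 0, while 52.1% of all genes were above 0. At an unadjusted p below 0.05, 56 members were lower and 2 higher, against 14.9% and 17.7% of all genes. The groups did not overlap for 31 members in the lower direction and 1 in the higher, against 4.55% and 4.57% of all genes. By complex, 10 of 38 members of complex I fell, all 5 of complex II, 5 of 9 of complex III, 3 of 21 of complex IV and 3 of 20 of complex V. This comparison shares its swum 1-year libraries with the exercise comparison at 1 year, so the values of the 2 are not independent.

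All of complex II fell. SDHA had 258.0, 241.4, 251.5, 238.4 and 278.4 CPM in swum 3-year fish, below every value of the swum 1-year fish given above, and its log2 fold change was -0.64 (SE 0.10, edgeR adjusted p = 0.00107). SDHB had 102.6, 96.4, 79.6, 96.5 and 90.6 CPM in swum 3-year fish, against 168.8, 140.2, 151.7, 163.0 and 119.4 CPM in swum 1-year fish. These groups too did not overlap, and the log2 fold change was -0.67 (SE 0.14, adjusted p = 0.00466). SDHC fell by 0.39 and the main SDHD copy, ENSDARG00000030139, by 0.38. The second SDHD copy, ENSDARG00000055712, fell by 1.49 (SE 0.47, adjusted p = 0.0359) at levels of 0.0243 to 0.554 CPM in swum 3-year fish and 0.594 to 1.18 CPM in swum 1-year fish, which is close to the detection limit. Reads of the 2 SDHD copies could have been split in counting, as for other paralogs here.

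In complex I the falls by p began with NDUFV1 at -0.58 (SE 0.12, edgeR adjusted p = 0.00473) and NDUFS1, the large iron-sulfur subunit, at -0.63 (SE 0.13, adjusted p = 0.00514). NDUFS1 had 175.6, 152.2, 201.9, 140.1 and 204.7 CPM in swum 3-year fish, against 290.4, 272.9, 265.6, 251.2 and 272.3 CPM in swum 1-year fish, with no overlap. The accessory subunits ndufc1, NDUFB9 and NDUFB2 fell by 0.63, 0.44 and 0.58. Members that also fell were NDUFA10, NDUFB6, NDUFS3 and NDUFS8, with log2 fold changes of -0.52, -0.50, -0.46 and -0.31.

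In complex III, CYC1 fell by 0.54 (SE 0.11, edgeR adjusted p = 0.00536) and the Rieske iron-sulfur protein UQCRFS1 by 0.56 (SE 0.15, adjusted p = 0.0151). The core proteins UQCRC1 and UQCRC2 fell by 0.68 and 0.53, and the small subunit UQCR10 by 0.66. In complex IV, cox5aa, cox6b2 and COX7C fell by 0.48, 0.39 and 0.51. COX4I1, the most abundant member of that complex, was at -0.30 (SE 0.15, adjusted p = 0.173) and did not pass.

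In complex V the largest fall among called genes was that of atp5if1b, which encodes an inhibitor of the ATP synthase and is no part of its catalytic core. It had 102.5, 88.6, 97.0, 78.5 and 98.2 CPM in swum 3-year fish, against 150.7, 148.8, 147.3, 123.4 and 134.8 CPM in swum 1-year fish. The groups did not overlap and the log2 fold change was -0.60 (SE 0.11, edgeR adjusted p = 0.00339). The small subunit atp5md fell by 0.51 and the rotor subunit ATP5F1C by 0.39. The catalytic beta subunit ATP5F1B and the alpha subunit ATP5F1A had log2 fold changes of -0.40 (adjusted p = 0.0984) and -0.35 (adjusted p = 0.0877).

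Between unexercised 3-year and unexercised 1-year fish the members leaned the same way, but 1 rose and 1 fell, while 0.495% of all genes were called higher and 0.471% lower. The median log2 fold change was -0.29, against 0.02 over all genes, and 89 of 93 members were below 0, while 52.4% of all genes were above 0. At an unadjusted p below 0.05, 40 members were lower and 1 higher, against 8.38% and 8.81% of all genes. The groups did not overlap for 4 members in the lower direction and 1 in the higher, against 2.51% and 2.58% of all genes. The 4 were CYC1, SDHD (ENSDARG00000055712), cox6b2 and ATP5F1B, and the 1 was COX4I2. DESeq2 called 11 of 94 members lower (11.7%) and 1.53% of all genes, and limma voom 8 of 93 members (8.6%) and 2.43% of all genes. The difference between the age effects in swum and unexercised fish is the same contrast as that between the exercise effects. No member passed it in edgeR, DESeq2 or limma voom. The 26 falls in swum and 1 in unexercised fish therefore do not show that the age effect differed with exercise.

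CYC1 was the member that fell. Its unexercised 3-year values of 99.2 to 131.4 CPM, listed above, lay below all unexercised 1-year values of 143.7 to 209.8 CPM, and the log2 fold change was -0.48 (SE 0.11, edgeR adjusted p = 0.0443). This call was lost on leaving out any 1 of 10 libraries, unexercised 1-year replicate 1 among them. NDUFS1 at -0.54 (SE 0.13, adjusted p = 0.0518) and UQCR10 at -0.63 (SE 0.15, adjusted p = 0.0542) were just short of the threshold. In complex II, the SDHD copy ENSDARG00000055712 had the lowest p, at -1.70 (adjusted p = 0.093), and in complex V ATP5MC3, a subunit of the membrane ring, at -0.43 (adjusted p = 0.11). SDHB was at -0.10 (SE 0.14, adjusted p = 0.732) and did not pass.

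**Figure D3:**
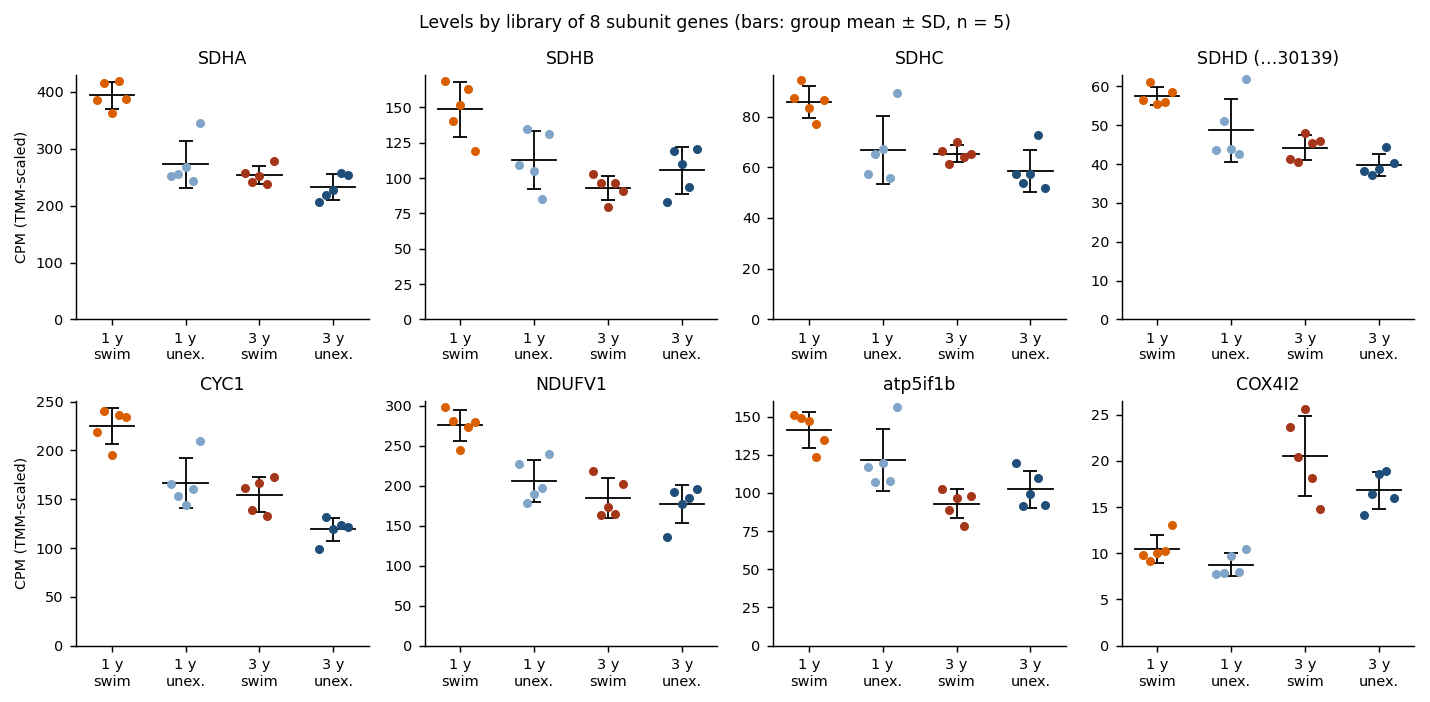
Level of 8 subunit genes in CPM (vertical axis, from 0) in each of the 20 libraries, by group (horizontal axis); points are libraries and bars the group mean ± SD (n = 5). SDHA in swum 1-year fish, at 363.3 to 419.8 CPM, lies above every other library, and COX4I2 is higher in all 3-year libraries than in all 1-year libraries.

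COX4I2 was the 1 member called higher with age in edgeR. Its log2 fold change was above 0 in both age comparisons, as were those of 4 members in all without exercise and 7 with it. It encodes the alternative form of complex IV subunit 4, which in mammals is prominent in lung and responds to low oxygen. It had 23.7, 20.4, 25.6, 18.2 and 14.8 CPM in swum 3-year fish, against 9.86, 9.18, 10.0, 10.2 and 13.1 CPM in swum 1-year fish. It had 14.2, 16.4, 18.6, 18.9 and 16 CPM in unexercised 3-year fish, against 7.77, 7.84, 9.66, 7.96 and 10.5 CPM in unexercised 1-year fish. Every 3-year library was above every 1-year library. COX4I2 rose with age by 0.97 in swum fish (SE 0.15, edgeR adjusted p = 0.000933) and by 0.94 in unexercised fish (SE 0.15, adjusted p = 0.00618), and both calls held with each library left out in turn. With exercise its log2 fold change was 0.26 at 1 year (adjusted p = 0.258) and 0.29 at 3 years (adjusted p = 0.29), neither of which passed.

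Shares of paralogs were examined in 12 families, chosen after values of these genes had been seen, with 16 shares and 64 two-sided exact permutation tests of 5 against 5 libraries. The smallest p that such a test allows is 0.00794, which 4 of the 64 tests reached. After Benjamini-Hochberg adjustment over the 64 tests it was 0.127, so no share passed. A share at the smallest p could have passed only if many more tests had reached it. This outcome therefore does not weigh single shares. COX4I2 made up 3.62% ± 0.811 of the summed RPKM of the 3 COX4 genes in swum 3-year fish and 1.5% ± 0.308 in swum 1-year fish (SD, n = 5 each, exact permutation p = 0.00794). In unexercised fish it made up 3.98% ± 0.688 at 3 years and 1.59% ± 0.233 at 1 year (SD, n = 5 each, exact permutation p = 0.00794). COX4I1 remained by far the most abundant form, at 86.7% to 96.2% of the family in the 20 libraries.

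In the inhibitor gene pair the share reached the smallest possible p in swum 3-year over swum 1-year fish, but did not pass after adjustment (exact permutation test, adjusted p = 0.127). The share of atp5if1a was 34.4%, 22.4%, 28.1%, 25.1% and 31.1% of the summed RPKM of both copies in swum 3-year fish, against 17.5%, 18.5%, 18.2%, 19.5% and 18.2% in swum 1-year fish (exact permutation p = 0.00794). All swum 3-year libraries were above all swum 1-year libraries. In unexercised fish the share was 22.1% ± 6.91 at 3 years and 20.3% ± 3.24 at 1 year (SD, n = 5 each), and these groups overlapped. For uqcrc2a, a paralog of the complex III core gene UQCRC2, the share was 15.9% ± 0.311 in unexercised 3-year and 13.8% ± 0.972 in unexercised 1-year fish (SD, n = 5 each, exact permutation p = 0.00794).

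**Figure D4:**
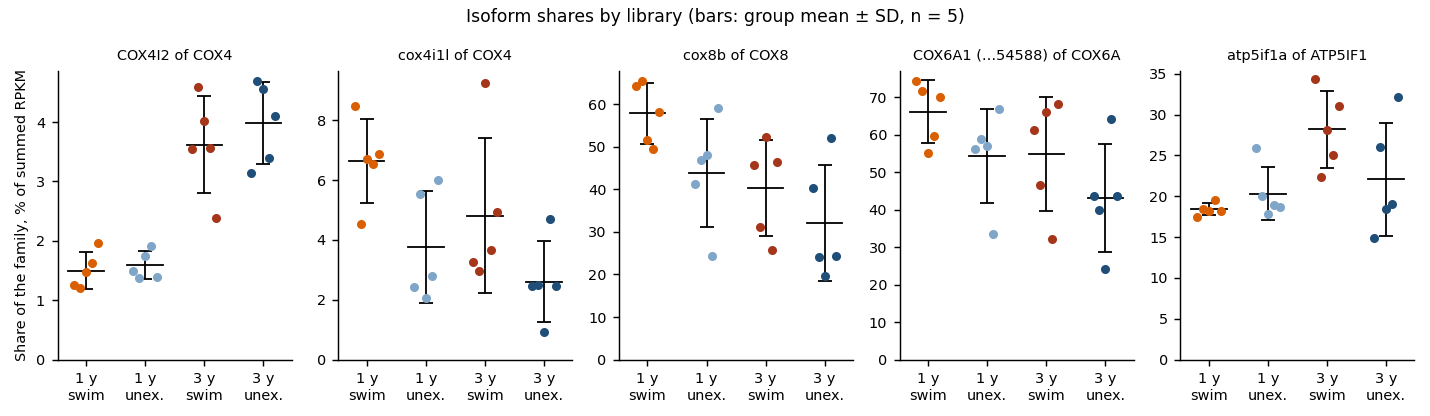
Share of 1 gene in the summed RPKM of its paralog family (vertical axis, percent, from 0) in each library, by group (horizontal axis); points are libraries and bars the group mean ± SD (n = 5). COX4I2 takes 2.38% to 4.69% in the 3-year libraries and 1.2% to 1.96% in the 1-year libraries, while cox4i1l, cox8b and COX6A1 (ENSDARG00000054588) spread widely within each group.

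By the SD of log2(CPM + 1) over the 20 libraries, the 5 most variable members all belonged to complex IV. They were cox4i1l, COX6A1 (ENSDARG00000054588), cox8b, COX5B (ENSDARG00000068738) and cox7a1, at 1.04, 0.80, 0.79, 0.75 and 0.75. The median of all members was 0.31. None of the 5 passed edgeR's test in any comparison. The added 1 narrows the spread of members near or below 1 CPM. Among these are SDHD (ENSDARG00000055712), at a mean of 0.458 CPM, and ndufa9b, at 1.44 CPM. The ranking therefore does not cover the relative spread of such members. COX6A1 (ENSDARG00000054588) had 116.3, 53.1, 118.2, 36.0 and 134.5 CPM in swum 3-year fish, against 44.3, 48.1, 25.2, 103.0 and 56.1 CPM in unexercised 3-year fish. The high libraries were swum replicates 1, 3 and 5 and unexercised replicate 4, so the groups overlapped widely. The share of cox8b in the COX8 pair likewise ranged from 25.7% to 52.2% in swum and from 19.7% to 52.0% in unexercised 3-year fish. By contrast COX5B (ENSDARG00000015978) stayed within 96.4 to 132.7 CPM in all 20 libraries.

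These libraries also differed in muscle transcripts. A mean log2(CPM + 1) over 12 slow muscle genes was 5.95, 5.32, 6.31, 5.02 and 5.99 in swum 3-year fish, against 5.02, 5.10, 4.54, 6.20 and 5.07 in unexercised 3-year fish. At 1 year it was 5.97, 6.14, 5.88, 5.78 and 5.90 in swum fish, against 5.50, 5.58, 5.64, 5.02 and 5.92 in unexercised fish. The libraries of highest slow muscle score in the unexercised groups, replicate 5 at 1 year and replicate 4 at 3 years, were the highest of their groups in 78 and 70 of 93 members. The library of lowest score at 1 year, unexercised replicate 4, was the lowest of its group in 69 members. In swum 1-year fish the library of highest score, replicate 2, was the highest in 49 members, and that of lowest score, replicate 4, the lowest in 51. At 3 years other libraries did not follow this order of the slow muscle score. Swum replicate 3, of highest score, was the highest in 24 members, against 38 for replicate 1, and swum replicate 4, of lowest score, was the lowest in 30, against 52 for replicate 2. Unexercised replicate 3, of lowest score, was the lowest in 21 members, against 35 for replicate 1. By fast muscle score the same libraries were highest and lowest in both 1-year groups. At 3 years, swum replicate 1 had the highest fast muscle score of its group, 7.31, and unexercised replicate 1 the lowest, 4.92. Unexercised replicate 4, at 5.92, lay below replicates 2 and 5, at 6.4 and 6.1. Swum replicate 4, at 5.08, lay below replicate 2, at 5.96.

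Summed levels of the 12 slow muscle genes were 1770 to 2410 CPM in swum and 979.7 to 2116 CPM in unexercised 1-year fish, and 948.8 to 2801 CPM in swum and 715.7 to 2547 CPM in unexercised 3-year fish. The 22 fast muscle genes summed to 2768 to 18590 CPM in swum and 3048 to 7632 CPM in unexercised 3-year fish, and to 6025 to 12679 CPM in swum and 3763 to 9883 CPM in unexercised 1-year fish. No marker of either list was at 0 throughout a group. In bulk tissue, fewer cells of a type and less RNA per cell cannot be told apart. Of the muscle markers tested, 21 fast and 12 slow, 1 passed for exercise at 3 years (myhz2, log2 fold change 2.48, edgeR adjusted p = 0.0372). For age with exercise 1 passed (mb, -1.40, edgeR adjusted p = 0.0213). The lists as a whole did not follow mb. For age with exercise the fast muscle median was 0.37, with 18 above 0, and the slow muscle median -0.08, with 6 above 0. For exercise at 3 years the medians were 1.14, with 21 above 0, and 0.50, with 11 above 0. Of all genes, 0.803% were called higher in the first comparison and 7.43% lower in the second.

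With the fast muscle score as a covariate, the members' median for exercise at 3 years was 0.025, against 0.244 without it, and with the slow muscle score it was 0.041. For exercise at 1 year the median was 0.243 with the fast and 0.161 with the slow muscle score, against 0.306 without either. For age without exercise it was -0.181 with the fast and -0.162 with the slow muscle score, against -0.294 without either. For exercise at 1 year, 5 of 93 members (5.38%) were called higher with the fast muscle covariate, against 6.68% of all genes, and 2 (2.15%) with the slow muscle covariate, against 4.98% of all genes. For age with exercise, 55 of 93 members (59.1%) fell with the fast muscle covariate, against 8.56% of all genes, and 26 (28.0%) with the slow muscle covariate, against 6.2% of all genes. The slow muscle covariate was added after the data were seen.

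**Figure D5:**
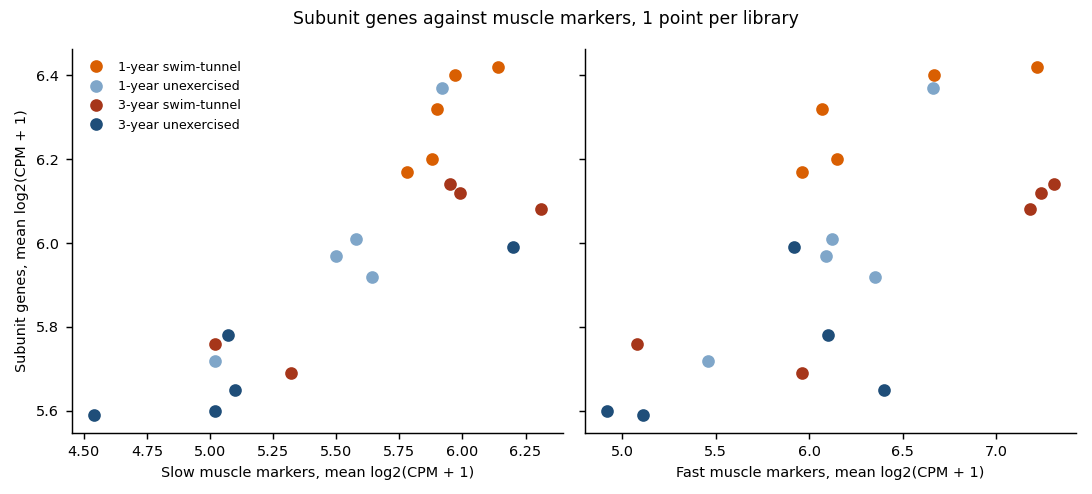
Mean log2(CPM + 1) of the tested subunit genes (vertical axis) against that of slow muscle markers (left) and fast muscle markers (right), 1 point per library, colored by group. Unexercised 1-year replicate 5, at 6.37 on the vertical axis, and unexercised 3-year replicate 4, at 5.99, stand above the rest of their groups and have the highest slow muscle scores in them. By fast muscle score only the former is the highest of its group.

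Markers of liver and of keratinocytes moved with the groups as well. Of 29 hepatocyte genes tested, 23 rose in swum over unexercised 1-year fish and 19 fell in swum 3-year over swum 1-year fish, with medians of 2.96 and -2.25. Of all genes, 7.37% were called higher in the first comparison and 7.43% lower in the second. The 30 hepatocyte genes matched summed to 1951 to 8137 CPM in swum and 1423 to 2317 CPM in unexercised 1-year fish, and to 1386 to 2172 CPM in swum and 1852 to 3406 CPM in unexercised 3-year fish. With a hepatocyte score as a covariate, 3 of 93 members (3.23%) rose for exercise at 1 year, against 4.55% of all genes. In the same fit 6 members (6.45%) fell for age with exercise, against 4.1% of all genes, namely SDHA, SDHB, NDUFV1, NDUFS1, CYC1 and atp5if1b. The members' medians in that fit were 0.203 for exercise at 1 year and -0.288 for age with exercise. Without the covariate they were 0.306 and -0.366.

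Of 22 keratinocyte genes tested, 7 rose with exercise at 1 year and 6 fell for age with exercise. Of all genes, 7.37% were called higher in the first comparison and 7.43% lower in the second. The keratinocyte score was 8.87 to 9.30 in swum and 8.17 to 8.66 in unexercised 1-year fish, with no overlap. With a keratinocyte score as a covariate, no member passed in either comparison in edgeR. At an unadjusted p below 0.05, 3 of 93 members were higher and 0 lower for exercise at 1 year. Of all genes, 1164 of 20788 were, in both directions together. For age with exercise 24 members were lower and 1 higher, against 2689 of 20788 genes in both directions together. Over all genes the same fit called 0 for exercise at 1 year, and 21 higher and 31 lower for age with exercise. The members' medians in it were 0.203 and -0.308. The part of these markers in the results was not tested.

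Ionocytes, skin cells rich in mitochondria, were at low levels: 15 marker genes summed to 27.5 to 77.5 CPM in swum and 21.8 to 48.9 CPM in unexercised 1-year fish, and to 32.1 to 64.7 CPM in swum and 18.6 to 32.3 CPM in unexercised 3-year fish. Of 12 tested, 1 rose with exercise at 3 years (atp1a1a.5, 2.02, edgeR adjusted p = 0.0237), against 0.803% of all genes. The median of the 12 was 0.08 for exercise at 3 years, with 6 above 0, and 0.61 for exercise at 1 year, with 11 above 0. Of 9 erythrocyte genes tested, 1 rose with age without exercise (RHAG, 0.96, adjusted p = 0.0283), against 0.495% of all genes. For exercise at 1 year their median log2 fold change was 1.08, with 8 above 0. None of the 9 passed there in edgeR, and 3 were higher at an unadjusted p below 0.05, against 14.5% of all genes. A score over the 10 erythrocyte genes matched, a mean log2(CPM + 1), was 3.98 ± 0.36 in swum and 2.95 ± 0.69 in unexercised 1-year fish (SD, n = 5 each), and its part in the members' values was not tested.

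Of the 13 subunits encoded in mitochondrial DNA that were matched, 5 rose with exercise at 1 year, with a median of 0.43, among them MT-CO3 at 0.48 (SE 0.12, edgeR adjusted p = 0.0107) and MT-CYB at 0.56 (SE 0.15, adjusted p = 0.0165). Of all genes, 7.37% were called higher there. None of the 13 passed in the other 3 comparisons, while 7.43% of all genes were called lower for age with exercise. The median of the 13 was 0.17 for exercise at 3 years, -0.02 for age without exercise and -0.24 for age with exercise. They therefore lay nearer to 0 than the nuclear subunits with age without exercise, where the nuclear median was -0.29. That contrast between the genomes was not tested.

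Of 51 assembly factors tested, 3 rose and 1 fell with exercise at 1 year, and 8 fell for age with exercise. Over all genes, 7.37% were called higher and 8.15% lower with exercise at 1 year. For age with exercise, 9.73% of all genes were called higher and 7.43% lower. These shares also stand beside the carriers and cycle genes below. Assembly factors and cycle genes were called higher with exercise at 1 year no more often than all genes. In age without exercise 1 assembly factor fell, ECSIT at -0.74 (SE 0.16, edgeR adjusted p = 0.0383), while 0.471% of all genes were called lower. SDHAF2, which attaches the flavin to SDHA, rose by 0.43 with exercise at 1 year (SE 0.14, edgeR adjusted p = 0.0418) and fell by 0.52 for age with exercise (SE 0.14, adjusted p = 0.0169). Among 9 electron and nucleotide carriers, 4 rose with exercise at 1 year. They included ETFA, ETFB and ETFDH, which pass electrons from fatty acid oxidation to ubiquinone, at 0.46, 0.48 and 0.43. For age with exercise, 1 carrier rose and 3 fell, among them ETFA at -0.72 (SE 0.13, adjusted p = 0.00291). Of 19 genes of the tricarboxylic acid cycle, 1 rose with exercise at 1 year (IDH3B, 0.51, adjusted p = 0.0105) and 5 fell for age with exercise.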

How the data were processed

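Total RNA went into a TruSeq kit for RNA libraries, per the labels' protocols. It keeps no strand information, so overlapping and antisense genes can share reads. Software named in the submitters' processing notes is featureCounts 1.4.6-p4, STAR 2.4.1d and bcl2fastq 1.8.4, with the build GRCz10. The annotation and settings were not stated there. The authors deposited whole-number counts per gene and RPKM values. In the deposited RPKM, the length that count and RPKM imply for a gene varied between libraries by 22.029% (median coefficient of variation over 4195 genes) with each library's own total, and by 0.00131% with the 20 totals taken in turn down the rows. The deposited RPKM was therefore used to recover lengths only, and RPKM printed here was recomputed from counts with TMM-scaled totals. Symbols came from a separate table of gene names (26269 of 32105 IDs), and no sequences or coordinates are given.

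A single fit with 4 group means held all 20 libraries, using R 4.3.3 and edgeR 4.0.16 (TMM, filterByExpr, robust quasi-likelihood F-tests, 16 residual degrees of freedom, biological coefficient of variation 34.7%). The SE is the absolute log2 fold change over the square root of F. A gene was called at an adjusted p below 0.05 (Benjamini-Hochberg, 20788 genes tested). Alternatives were RLE scaling, no filter, DESeq2 1.42.0, limma 3.58.1 voom with quality weights, the compared groups alone, fast muscle and hepatocyte covariates and each library left out. Slow muscle and keratinocyte covariates, a pair of libraries left out and shares of CPM in place of RPKM were added after the data were seen. Each covariate was the mean of edgeR's log2 CPM over the matched genes of its list. It is therefore not identical to the printed score, which uses log2(CPM + 1). The edgeR steps, coded separately, were tried on simulated counts with larger changes than most members showed. That trial does not cover changes of the members' size, nor the difference between the exercise effects. All pairs of libraries within groups differed beyond sampling noise (lowest chi-square per degree of freedom 47.8).

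Members and lists were chosen with earlier results of these data known. The rule for named genes took, per comparison, up to 6 called members per complex or, with none called, the one of lowest p, then fixed core and isoform subunits, the 3 highest, 3 lowest and 3 most variable members, and up to 3 called genes of other lists. The other calls of complex I in age with exercise, UQCR10 where it did not pass, COX5B and cox7a1 among the variable members and the paralog shares were named after their values were seen. Results for some genes of these lists are not reported here.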

Additional observations from a re-analysis of the deposited data

Results flagged for a closer look

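In 288 groups of 5 libraries (levels of named members and paralog shares by group), 19 held a library far from the other 4, which is 6.6%, against about 1 in 20 by chance. Most came from a pair of libraries. In unexercised 3-year replicate 4, SDHC had 72.9 CPM, cox5aa 212.9, COX7C 127.7, ndufa7 18.4, NDUFB9 88.2, UQCRC1 190.6, NDUFS3 76.4 and cox7a1 66.5 CPM, each above the rest of its group. In unexercised 1-year replicate 5, SDHA had 345.0 CPM, ndufc1 30.7, atp5if1b 156.4, NDUFAB1 67.5 and uqcrc2a 50.0 CPM, each above the rest of its group.

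COX4I2 at 13.1 CPM in swum 1-year replicate 5, against 9.18 to 10.2 CPM in the others of its group, was nearer to the 3-year levels. UQCR10 had 74.2 CPM in swum 3-year replicate 5. The share of COX4I1 in its family was the lowest of its group in swum 3-year replicate 3, at 86.7%, and the share of atp5if1a was the highest of its group in unexercised 1-year replicate 1, at 25.9%. The near-silent ndufa4l2b was at 0.0258 CPM in swum 3-year replicate 4 and at 0.0575 CPM in unexercised 3-year replicate 1, and at 0 in the other libraries of those groups.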

How the results depend on the processing

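No paired analysis was possible because the replicate numbers follow accession order. For exercise at 1 year, 7 members were called, against 3 with no low-count filter, 14 in DESeq2, 33 in limma voom, 3 with the hepatocyte, 2 with the slow muscle and 0 with the keratinocyte covariate. The count was 2 to 37 with single libraries left out (37 without unexercised 1-year replicate 5, 2 without unexercised 1-year replicates 3 or 4 or swum 1-year replicates 1 or 2, 3 without unexercised 1-year replicate 1 or swum 1-year replicate 4, and 4 without unexercised 1-year replicate 2, swum 1-year replicate 5, unexercised 3-year replicates 2, 3 or 5 or swum 3-year replicates 1, 3, 4 or 5) and 41 with both unexercised libraries of highest slow muscle score left out. For exercise at 3 years, DESeq2 called 1, and the median of 0.244 was 0.025 with the fast muscle and 0.041 with the slow muscle covariate. For age without exercise, 2 members were called, against 4 with RLE scaling, 12 in DESeq2, 9 in limma voom, 1 with the compared groups alone, 1 with the hepatocyte, 1 with the slow muscle and 4 with the keratinocyte covariate, 1 with the pair left out, and 1 to 4 with single libraries left out (1 without unexercised 1-year replicates 1, 2 or 5, swum 1-year replicate 1 or unexercised 3-year replicates 2, 3 or 5; 4 without swum 1-year replicate 4 or swum 3-year replicate 1). For age with exercise, 27 were called, against 56 with the fast muscle, 7 with the hepatocyte and 0 with the keratinocyte covariate, 43 with the pair left out, and 16 to 38 with single libraries left out (16 without swum 1-year replicate 2 and 17 without swum 3-year replicate 4). UQCRC1 in the difference of the exercise effect was 0.02 with the hepatocyte and 0.05 with the keratinocyte covariate, opposite in sign to the main value, and passed in none. Counts over all genes moved between settings as well. With no low-count filter, 1259 of 27622 genes were called higher for exercise at 1 year. With the pair left out, 1652 of 20934 genes were called higher for exercise at 1 year. For age with exercise, 1594 were called lower and 1895 higher, while 42 members were lower and 1 higher. For age without exercise, the main fit called 103 of 20788 genes higher and 98 lower. In the same order, RLE scaling called 104 and 106. The hepatocyte covariate called 40 and 32, slow muscle 32 and 27 and keratinocyte 185 and 178. The compared groups alone gave 57 and 72 of 19810 genes, and the pair left out 11 and 13 of 20934. DESeq2 called 429 and 422 of 27540 genes, and limma voom 427 and 506 of 20788. Shares of all genes are not given for single libraries left out. The cause of the shifts between settings was not tested. Over the named results, other settings kept direction and side of the threshold in 371 cases, lost the call in 75 and gained it in 11; leaving out 1 library kept both in 814, lost the call in 96 and gained it in 10. Medians of all genes moved by less than 0.1 under each scaling.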
